A study of Mus musculus with 6 samples.

Results

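Adenosine receptors and the enzymes and transporter that make, remove or move adenosine were examined in RNA-seq of mouse RPE-choroid, the retinal pigment epithelium (RPE) with the vascular choroid under it. The group comprised 9 genes, taken by symbol: the receptors Adora1, Adora2a, Adora2b and Adora3, the surface enzymes Entpd1 and Nt5e, the enzymes Ada and Adk, and the transporter Slc29a1. Of these, 8 were among the 15663 genes listed in the tables, and 7 were among the 13454 tested genes, those whose count exceeded 50 in 2 or more libraries. Adora3 had no row in the tables, which together hold only genes counted in every library, so no value is given for it. Adora2a was listed but stayed under the count criterion. Adora2b was picked for its tight decrease in this same comparison, so its values are a description and carry no test.

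The tissue came from 3 control mice and 3 mice with subretinal fibrosis (SRF), all males, one library per mouse. The study's methods give 8 to 10 weeks as the age of the mice supplied, and no age at RNA extraction. The strain is C57BL/6 in the labels and C57BL/6J in the study's methods. SRF was induced by 4 laser burns in each eye followed after 10 days by a second burn of each lesion, and RNA was taken 20 days after the second laser. Control mice were untreated. The whole RPE-choroid was extracted, so lesions and unburned tissue are mixed in each SRF library.

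Adenosine is made outside cells in 2 steps. CD39, encoded by Entpd1, takes ATP and ADP to AMP, and CD73, encoded by Nt5e, takes AMP to adenosine. The equilibrative transporter ENT1, encoded by Slc29a1, carries adenosine across the cell membrane, where adenosine kinase (Adk) turns it back into AMP and adenosine deaminase (Ada) turns it into inosine. The receptors encoded by Adora1 and Adora3 act mainly through Gi proteins, which hold cAMP down, and those encoded by Adora2a and Adora2b through Gs proteins, which raise it. In the RPE, adenosine and ATP from the subretinal space are known to act on fluid transport and on the handling of photoreceptor outer segments.

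The sequences upstream of the start sites of Adora2b and Adora1 are shown because these receptors differed in opposite directions. They were taken from RefSeq on GRCm38.p6 and end at the last base before the start. Capitals mark GC boxes (GGGCGG on either strand) and the core of the hypoxia response element (ACGTG on either strand). The Adora2b stretch, chr11:62248734-62248983 on the forward strand, held 6 GC boxes. The Adora1 stretch, chr1:134235458-134235707 on the reverse strand, held 3 GC boxes, which abut each other close to the start, and 1 ACGTG core. A second Adora1 start in the same source held neither motif.
Adora2b: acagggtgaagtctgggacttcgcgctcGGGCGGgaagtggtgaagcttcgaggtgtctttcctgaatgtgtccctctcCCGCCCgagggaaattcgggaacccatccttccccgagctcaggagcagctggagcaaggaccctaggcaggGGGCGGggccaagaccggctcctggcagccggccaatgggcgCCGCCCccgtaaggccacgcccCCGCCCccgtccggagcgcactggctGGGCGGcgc
Adora1: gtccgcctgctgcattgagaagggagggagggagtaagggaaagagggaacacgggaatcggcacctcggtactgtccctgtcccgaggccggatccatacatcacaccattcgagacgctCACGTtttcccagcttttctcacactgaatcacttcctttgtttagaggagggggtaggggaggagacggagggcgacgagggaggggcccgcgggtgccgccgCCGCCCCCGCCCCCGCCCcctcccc
Of 32851 such stretches of 250 bases, 32.7% held a GC box and 16.6% an ACGTG core. The cAMP response element TGACGTCA, held by 1.55%, and the TATA box TATAAA, held by 12.4%, were in neither of the printed stretches. These matches describe the letters in the window and were not tested as binding sites.

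Counts on genes summed to between 13667310 and 24356023 per library. RPE identity was checked with 20 marker genes, all of them listed, whose mean level lay between 9.50 and 9.93 log2 CPM (counts scaled to library size, TMM-normalised) in the 6 libraries. Photoreceptor RNA stood apart in 2 libraries, one of each group. Over 20 photoreceptor markers the mean was 8.24 log2 CPM in control mouse 1 and 8.25 in SRF mouse 3, against 4.53 to 5.68 in the other 4 libraries. Results that follow this split are given with and without these libraries. A gene was called where its Benjamini-Hochberg adjusted p lay under 0.05 and its log2 fold change reached 0.5 in size. By the quasi-likelihood test of edgeR, 0 of 13454 genes were called (0%), while 943 (7.01%) had an unadjusted p under 0.05, 4.16% of the tested genes being higher and 2.85% lower in SRF. DESeq2 called 153 genes (1.14%), of which 0.803% of the tested genes were higher and 0.334% lower. The p-values rest on the spread between 3 mice of each group.

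Adora2b, the A2B receptor of low affinity for adenosine, was lower in all 3 SRF mice than in any control mouse. It was measured at 115, 123 and 116 CPM in control mice 1, 2 and 3 and at 72.5, 67.2 and 58.2 CPM in SRF mice 1, 2 and 3. The control values were close together and the highest SRF value was far below the lowest control value. Groups without overlap were seen in 6.43% of tested genes in this direction, a share from which nothing is read, since this contrast chose the gene. Control mice averaged 118 ± 4.25 CPM (SD, n = 3), SRF mice 66.0 ± 7.23 CPM (SD, n = 3), and the log2 fold change was -0.83 (standard error 0.12), a level 43.9% below control. The gene (ENSMUSG00000018500) lies on chromosome 11 of GRCm38 from 62248984 to 62266453, and no other annotated gene overlaps it. DESeq2 gave a log2 fold change of -0.84 (standard error 0.14). The study lists Adora2b among its top down-regulated genes, from these same libraries. When any 1 mouse was left out, the edgeR log2 fold change stayed between -0.91 and -0.75. Without both photoreceptor-rich libraries it was -0.77.

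Most RPE markers were also lower in SRF. Of the 20, 15 were lower, 8 of them at an unadjusted p-value under 0.05 (2.85% of all tested genes), and their median log2 fold change was -0.29. Their summed level ran from 56200 to 65144 CPM in control and from 40575 to 50386 CPM in SRF mice, with none at 0. Against the mean of these markers, Adora2b was at -2.97 ± 0.034 (SD, n = 3) on the log2 scale in control and -3.53 ± 0.092 (SD, n = 3) in SRF mice. The difference in this relative level was -0.56, given as a description of a gene picked for its decrease. The groups of 9 of the 20 RPE markers did not overlap, all lower in SRF, against 6.43% of all tested genes. How far the level of RPE RNA enters the value of Adora2b was not tested. In bulk tissue, fewer cells of a type and less RNA per cell cannot be told apart.

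The 5 tested genes whose log2 CPM across the 6 libraries was most like that of Adora2b were Itgav, Ermn, Ciao1, Cycs and Gyg, with Pearson correlations from 0.990 to 0.998. Itgav encodes the integrin alpha V chain and had a log2 fold change of -0.57. Ermn, which is 1 of the 20 RPE markers, had -0.52. Both were smaller than the difference of Adora2b. The other 3 differed by -0.37 to -0.22. These likenesses are a description over 6 points that fall into 2 groups, and 56 genes had a correlation above 0.95.

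Adora1, the high-affinity A1 receptor, was higher in all 3 SRF mice. It was at 47.1, 46.1 and 57.4 CPM in control mice 1, 2 and 3 and at 71.6, 82.0 and 81.1 CPM in SRF mice 1, 2 and 3. The groups did not overlap, as in 13.1% of all tested genes and, in this direction, 6.71%. Control mice averaged 50.2 ± 6.24 CPM and SRF mice 78.2 ± 5.75 CPM (SD, n = 3 each). The log2 fold change was 0.64 (standard error 0.13, 95% interval 0.33 to 0.95), a 1.56-fold level. It did not pass edgeR (Benjamini-Hochberg adjusted p = 0.298). DESeq2 called it (Wald test, adjusted p = 0.0118 with Benjamini-Hochberg adjustment). The study ran DESeq2 on these same libraries, so this call is not independent evidence. DESeq2 no longer called it without control mouse 1, control mouse 2 or SRF mouse 2, or without both photoreceptor-rich libraries, and its adjusted p-value with one mouse left out ran from 0.000275 to 0.260 with Benjamini-Hochberg adjustment.

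The gene (ENSMUSG00000042429) lies on the reverse strand of chromosome 1 from 134199223 to 134235431. It shares 1162 of its 5785 exonic bases with Mybph on the opposite strand. Mybph was listed at 30 to 65 counts per library against 633 to 1472 for Adora1. Whether counting used the strand is not given in the sources used here. Genes most like Adora1 across the 6 libraries were Tmem178, Socs3, Madcam1, Vstm4 and Lilr4b, with Pearson correlations from 0.987 to 0.995. Socs3 is a feedback inhibitor of cytokine signalling, Madcam1 an adhesion molecule for leukocytes and Lilr4b a receptor of myeloid cells. The log2 fold changes of the neighbours ran from 0.54 for Socs3 and Vstm4 to 2.22 for Madcam1. As for Adora2b, these likenesses are a description over 6 libraries that fall into control and SRF groups. A correlation with Adora1 above 0.95 was seen in 70 genes.

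Markers of macrophages and microglia moved in the same direction as Adora1. Of 20, 19 were higher in SRF, 13 of them at an unadjusted p-value under 0.05 (4.16% of all tested genes), and their median log2 fold change was 0.78. Their summed level ran from 1619 to 2098 CPM in control and from 3649 to 5201 CPM in SRF mice, with none at 0. Against the mean of these markers, Adora1 was at 0.36 ± 0.17 (SD, n = 3) in control and 0.31 ± 0.13 (SD, n = 3) in SRF mice on the log2 scale, a difference of -0.05 that was smaller than either SD. Markers of some other cells were higher too, but not of all. Endothelial markers had a median log2 fold change of 0.03, and the 3 tested T and NK cell markers -0.60. Of 10 fibroblast and stroma markers, all listed, 10 were higher, 2 of them at an unadjusted p-value under 0.05, with a median log2 fold change of 0.49 and a summed level of 4522 to 10484 CPM in control and 6991 to 11430 CPM in SRF mice. Of 6 tested mast cell markers, 5 were higher, 4 of them at an unadjusted p-value under 0.05, with a median of 1.11, and the listed ones summed to 44.0 to 52.9 CPM in control and 66.9 to 73.7 CPM in SRF mice. Adora1 differed by 0.21 relative to the fibroblast and stroma markers and by -0.24 relative to the mast cell markers on the log2 scale. It differed by 0.52 relative to pericyte and smooth muscle, 0.59 to endothelial, 0.93 to RPE and 1.10 to T and NK cell markers. The last value rests on low counts. All 10 T and NK cell markers together summed to 22.6 to 25.3 CPM in control and 14.9 to 18.8 CPM in SRF mice. Relative to inner retina and photoreceptor markers Adora1 differed by 0.47 and 0.89, with a larger SD within each group. The part of any of these cells in the level of Adora1 was not tested.

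Adora2a, a receptor coupled to Gs, was near the limit of detection. Its counts were 16, 5 and 9 in the control libraries and 46, 16 and 12 in the SRF libraries. SRF mouse 1 was the highest library and control mouse 1 lay above SRF mice 2 and 3 after scaling, at 1.19 against 0.891 and 0.672 CPM. Fitted with all listed genes, it had a log2 fold change of 1.18 (standard error 0.75, edgeR, Benjamini-Hochberg adjusted p = 0.905). A difference was not detectable at this depth.

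**Figure D1:**
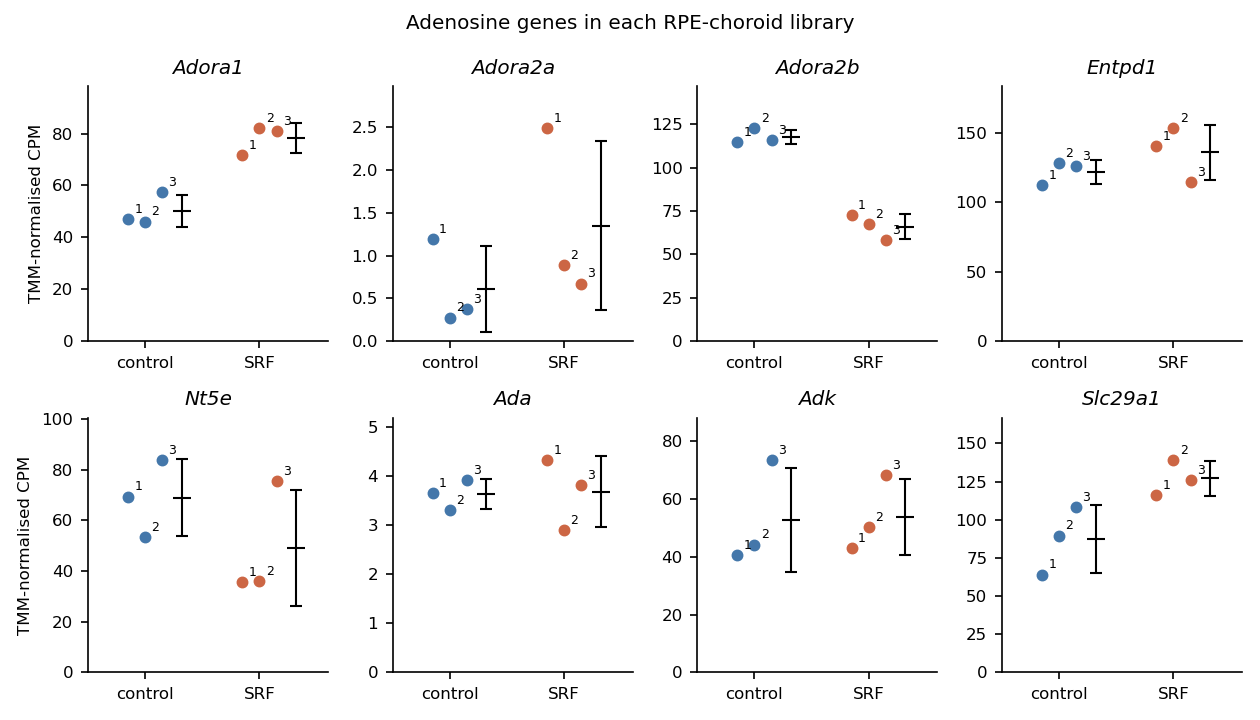
Level of each listed adenosine gene in TMM-normalised CPM (y axis, from 0, own scale per gene) for the 3 control and 3 SRF libraries, numbered by mouse, with the group mean ± SD in black at the right. Adora2b is lower and Adora1 and Slc29a1 are higher in every SRF library than in every control library, while SRF mouse 3 stands with the control mice for Nt5e.

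The receptors were compared per transcript length in the authors' FPKM values. Adora2b was the most abundant receptor in every library, at 62.5 ± 1.99 FPKM (SD, n = 3) in control and 36.3 ± 4.09 FPKM (SD, n = 3) in SRF mice. Adora1 followed at 12.5 ± 2.05 and 19.9 ± 2.42 FPKM, and Adora2a was at 0.230 ± 0.19 and 0.550 ± 0.36 FPKM. The FPKM ratio of Adora2b to Adora1 was 5.22, 5.91 and 4.16 in control mice 1, 2 and 3 and 2.32, 1.72 and 1.52 in SRF mice 1, 2 and 3. Adora2b stood above Adora1 in both groups, and every SRF ratio was below every control ratio. Adora2b made up between 80.5% and 85.4% of the summed FPKM of the 3 listed receptors in control and between 60.0% and 68.7% in SRF mice. Adora1 made up between 14.5% and 19.3% in control and between 29.6% and 39.4% in SRF mice. The summed receptor level was 75.3 ± 1.84 FPKM in control and 56.7 ± 3.35 FPKM in SRF mice. As Adora2b was picked for its decrease, these shares are given without a test.

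Over all 8 listed genes, the order of mean FPKM in control mice was Adora2b, Slc29a1, Entpd1, Adk, Nt5e, Adora1, Ada and Adora2a. In SRF mice it was Slc29a1, Entpd1, Adora2b, Adk, Adora1, Nt5e, Ada and Adora2a. Adora2b went from the first place, above 90.6% of all listed genes in control, to the third, above 83.9% in SRF. By CPM per kilobase of the longest transcript it was first in control and second in SRF mice, and 6 of the 8 genes had the same place in control mice as by FPKM. In control mice the libraries of Slc29a1 and Entpd1 overlapped, as did those of Nt5e and Adora1. In SRF mice those of Adora2b and Adk overlapped, as did those of Adora1 and Nt5e. All other neighbours in these orders were separate in every library of the group. The ends of the order, Ada at 2.11 FPKM and Adora2a at 0.230 FPKM in control mice, were the same in both groups.

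**Figure D2:**
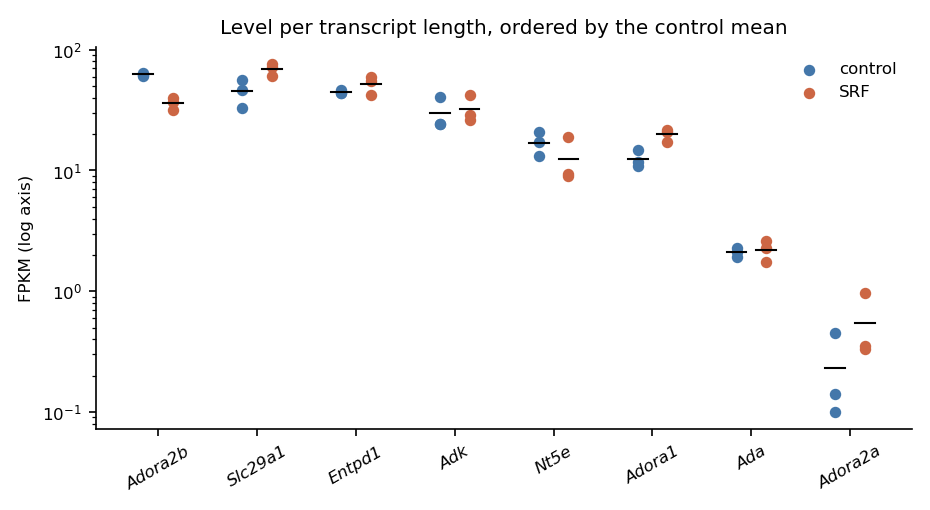
FPKM of the 8 listed adenosine genes on a log axis, ordered by the control mean, with 1 point per library and a line at the group mean. Adora2b is the highest in control mice, Slc29a1 the highest in SRF mice, and Ada and Adora2a are the lowest in both.

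The surface enzymes that make adenosine did not pass the test. Entpd1 (CD39, ENSMUSG00000048120), found on vessels and on many leukocytes, was at 112, 128 and 126 CPM in control mice 1, 2 and 3 and at 140, 153 and 114 CPM in SRF mice 1, 2 and 3. SRF mouse 3 lay within the control range. The log2 fold change was 0.15 (standard error 0.14, 95% interval -0.17 to 0.48, edgeR, Benjamini-Hochberg adjusted p = 0.951). Against the mean of the macrophage and microglia markers, Entpd1 was at 1.65 ± 0.088 (SD, n = 3) in control and 1.10 ± 0.23 (SD, n = 3) in SRF mice on the log2 scale. Against 16 endothelial markers it was at 0.56 ± 0.11 and 0.65 ± 0.13. The endothelial markers themselves summed to between 2216 and 2643 CPM in control and between 2059 and 2717 CPM in SRF mice, with a median log2 fold change of 0.03.

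Nt5e (CD73, ENSMUSG00000032420), which is also a surface marker of rod photoreceptors, was at 69.4, 53.5 and 83.9 CPM in control mice 1, 2 and 3. In SRF mice 1, 2 and 3 it was at 35.7, 36.2 and 75.4 CPM. SRF mice 1 and 2 were below every control mouse, and SRF mouse 3, the photoreceptor-rich SRF library, was inside the control range. The log2 fold change over all mice was -0.49 (standard error 0.33, 95% interval -1.26 to 0.28, edgeR, Benjamini-Hochberg adjusted p = 0.895). Without SRF mouse 3 it was -0.94 (edgeR, Benjamini-Hochberg adjusted p = 0.253). DESeq2 called it there (Benjamini-Hochberg adjusted p = 0.00403). Without both photoreceptor-rich libraries, 2 mice against 2, it was -0.94 in edgeR, which did not call it (Benjamini-Hochberg adjusted p = 0.0735), and -0.95 in DESeq2, which did (Benjamini-Hochberg adjusted p = 0.00161) among 514 genes of 13454. The mean of the photoreceptor markers was 8.24, 5.68 and 4.97 log2 CPM in control mice 1, 2 and 3 and 4.53, 5.36 and 8.25 in SRF mice 1, 2 and 3. Control mouse 3 had the highest Nt5e level of all libraries and the lowest photoreceptor mean of the control mice. The part of photoreceptor RNA in these values was not tested.

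Slc29a1 (ENT1, ENSMUSG00000023942) was higher in all 3 SRF mice, at 64.0, 89.5 and 108 CPM in control mice 1, 2 and 3 and at 116, 139 and 126 CPM in SRF mice 1, 2 and 3. The groups did not overlap, as in 6.71% of tested genes in this direction, and control mouse 3 was close to SRF mouse 1. Control mice averaged 87.3 ± 22.3 CPM and SRF mice 127 ± 11.5 CPM (SD, n = 3 each). The log2 fold change was 0.54 (standard error 0.20, 95% interval 0.07 to 1.01). It did not pass edgeR (Benjamini-Hochberg adjusted p = 0.609). DESeq2 did not call it (adjusted p = 0.385 with Benjamini-Hochberg adjustment). Without control mouse 1 the edgeR log2 fold change was 0.36, and without control mouse 3 it was 0.73, where DESeq2 called it (adjusted p = 0.0484 with Benjamini-Hochberg adjustment).

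The enzymes that remove adenosine showed no detectable difference, and their intervals were wide. Adk (adenosine kinase, ENSMUSG00000039197) was at 40.5, 44.2 and 73.5 CPM in control mice 1, 2 and 3 and at 42.9, 50.3 and 68.3 CPM in SRF mice 1, 2 and 3. The spread within each group was far larger than the difference between them (log2 fold change 0.03, standard error 0.27, 95% interval -0.62 to 0.68). Ada (adenosine deaminase, ENSMUSG00000017697) was low, at 3.65, 3.31 and 3.92 CPM in control and 4.33, 2.90 and 3.81 CPM in SRF mice, on 49 to 94 counts per library. It had a log2 fold change of 0.02 (standard error 0.29, 95% interval -0.67 to 0.71). For Adk, the sign of the small difference turned when control mouse 1, control mouse 2 or SRF mouse 3 was left out.

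**Figure D3:**
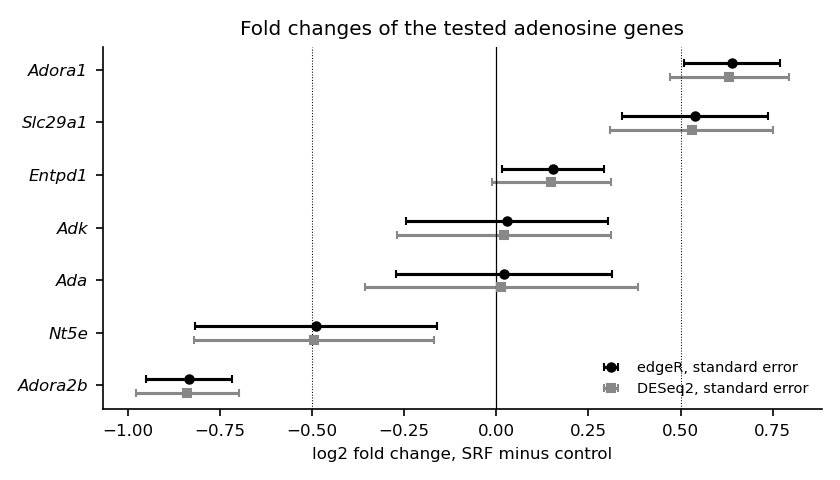
log2 fold change of the 7 tested adenosine genes, SRF minus control, with its standard error, from edgeR (circles) and DESeq2 (squares). Dotted lines stand at -0.5 and 0.5. Adora1 and Slc29a1 lie above 0.5 and Adora2b below -0.5, Entpd1, Adk and Ada lie near 0, and the estimates of the 2 tools differ by less than their standard errors.

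**Figure D4:**
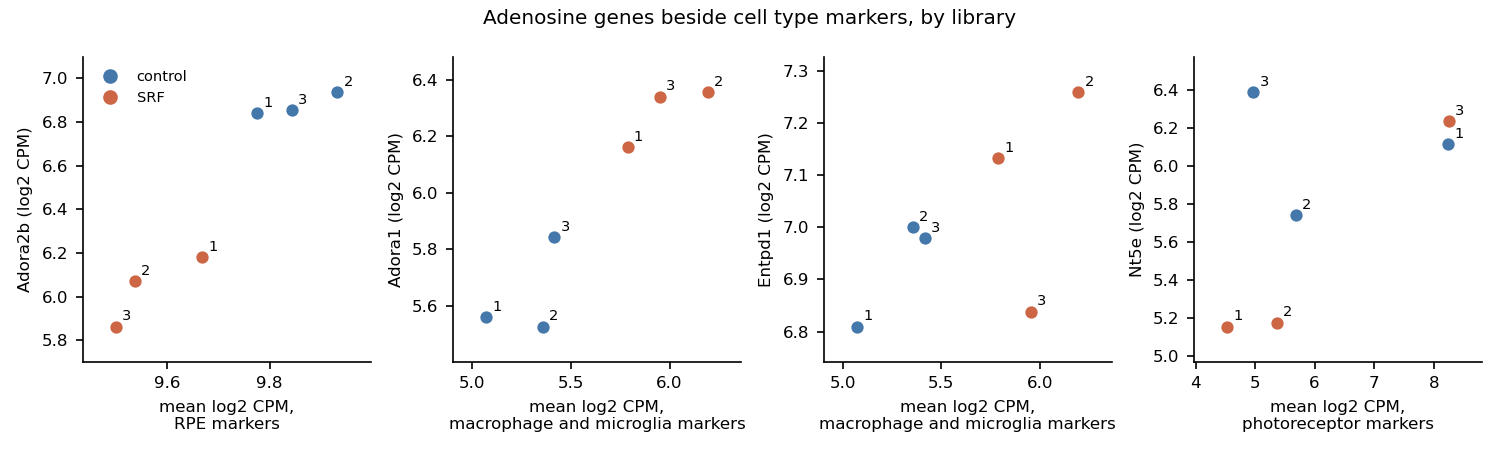
log2 CPM of 4 adenosine genes (y axis) against the mean log2 CPM of a marker list (x axis) in each library, numbered by mouse. The SRF libraries lie lower than the control libraries on both axes for Adora2b and RPE markers. They lie higher on both for Adora1 and macrophage markers, and Entpd1 in SRF mouse 3 lies apart from that order. Nt5e in SRF mouse 3 lies beside control mouse 1 at the high photoreceptor level. The highest Nt5e value is that of control mouse 3, which has the lowest photoreceptor level of the control mice.

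The genes around these 9 were read from 9 lists of adenosine and ATP signalling, grouped by role. They held 142 genes, of which 118 were tested. With edgeR's adjusted p-value 0 of them were called. At an unadjusted p-value under 0.05 there were 8 higher and 8 lower, or 13.6%, against 7.01% of all tested genes. Of the 8 lower, 5 were in the list of early genes that respond to cAMP. The lists were chosen with earlier results of these data known, so these counts are a description. The median log2 fold change over the 118 genes was -0.02, against 0.00 over all tested genes. DESeq2, which called 1.14% of all tested genes, called 2 of the 118, Nr4a1 and Sik1, both lower and both already listed by the study from these libraries.

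Among other ectonucleotidases and related surface enzymes, 4 of 12 tested were higher and 8 lower, with a median log2 fold change of -0.16. Dpp4, the surface peptidase that binds adenosine deaminase in humans, was at 35.6, 45.0 and 50.4 CPM in control and 29.4, 28.6 and 30.2 CPM in SRF mice (log2 fold change -0.57, standard error 0.15). Enpp2 (autotaxin), an abundant lysophospholipase of the RPE, had a log2 fold change of -0.46 (standard error 0.16). Enpp1, which splits ATP to AMP and pyrophosphate, was higher at 0.54 (standard error 0.18). Control and SRF values were separate for all 3, as in 13.1% of all tested genes. These 3 were named for an unadjusted p-value under 0.05, so nothing is read from the separation. Their adjusted p-values ran from 0.413 to 0.579 (edgeR, Benjamini-Hochberg). Alpl, the tissue-nonspecific alkaline phosphatase that can also make adenosine, was at 106 to 151 CPM in control and 119 to 157 CPM in SRF mice, with a log2 fold change of 0.06 (standard error 0.17).

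Of the enzymes of purine metabolism inside the cell, 24 were tested, and Ahcyl2, a relative of the enzyme that frees adenosine from S-adenosylhomocysteine, was the one with an unadjusted p-value under 0.05 (log2 fold change 0.48, standard error 0.13). The median of this list was -0.04. None of the 4 tested nucleoside transporters other than Slc29a1 had an unadjusted p-value under 0.05. The closest relative in the list by value was Slc29a3, a lysosomal nucleoside transporter, at 0.40 (standard error 0.20). The 8 tested genes of ATP release also had none, with a median of 0.08 that turned to -0.041 without SRF mouse 3 and to -0.027 without both photoreceptor-rich libraries. Among 10 tested receptors for ATP, ADP and UDP-sugars, 7 were higher and 3 lower. P2rx4, an ATP-gated channel of macrophages and microglia, was at 25.7, 28.4 and 29.7 CPM in control and 34.1, 53.1 and 42.8 CPM in SRF mice (log2 fold change 0.63, standard error 0.18).

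Behind the receptors, the G protein alpha subunits had a median of 0.01 over 10 genes. Gnai2, a Gi subunit through which the A1 receptor can signal, was at 125, 141 and 92.7 CPM in control and 267, 204 and 119 CPM in SRF mice. Its difference was 0.72 on the log2 scale (standard error 0.30), and SRF mouse 3 lay within the control range. Gna12 was at 0.59 (standard error 0.15), with groups that did not overlap, as in 6.71% of tested genes in this direction. Of 23 genes that make or break down cAMP, Adcy7, an adenylyl cyclase of leukocytes, had an unadjusted p-value under 0.05, with a log2 fold change of 0.41 (standard error 0.14). Among 16 effectors of cAMP, Prkaca, the catalytic subunit of protein kinase A, was higher at 0.496 (standard error 0.13). DESeq2 gave Prkaca an adjusted p of 0.0466 (Wald test, Benjamini-Hochberg) but did not call it, its fold change being under the criterion. Rapgef4 (Epac2), a cAMP-activated exchange factor, was lower at -0.51 (standard error 0.14). Creb3l1 was higher at 0.68 (standard error 0.25), with overlapping groups. The adjusted p-values of these 6 genes were between 0.413 and 0.710 (edgeR, Benjamini-Hochberg).

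Early genes that respond to cAMP, among other signals, were lower in SRF in 11 of 11 tested, with a median log2 fold change of -0.88. Of all tested genes, 50.3% were higher in SRF. An unadjusted p-value under 0.05 was seen in 5 of the 11, against 2.85% of all tested genes in this direction. The list was chosen with earlier results of these data known, so these counts are a description. Nr4a1, a nuclear receptor of the immediate early class, was at 78.8, 364 and 290 CPM in control and 27.8, 23.4 and 48.8 CPM in SRF mice (log2 fold change -2.87, standard error 0.58). Sik1, a kinase induced by cAMP that restrains CREB coactivators, was at 7.37, 20.8 and 18.1 CPM in control and 4.38, 5.12 and 4.93 CPM in SRF mice (-1.68, standard error 0.38). Control mouse 1 was the lowest control for both, nearer to the SRF mice than the other 2 control mice were. Nr4a2 was at -1.21 (standard error 0.38), Fos at -1.32 (standard error 0.48) and Egr1 at -0.93 (standard error 0.29). Per1, a clock gene with a cAMP response element, was at -0.16 (standard error 0.27). Nr4a1 and Sik1 were listed by the study from these libraries, so their direction is not independent evidence. In the study's qRT-PCR, Nr4a1 showed a trend to lower levels that did not reach statistical significance.

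**Figure D5:**
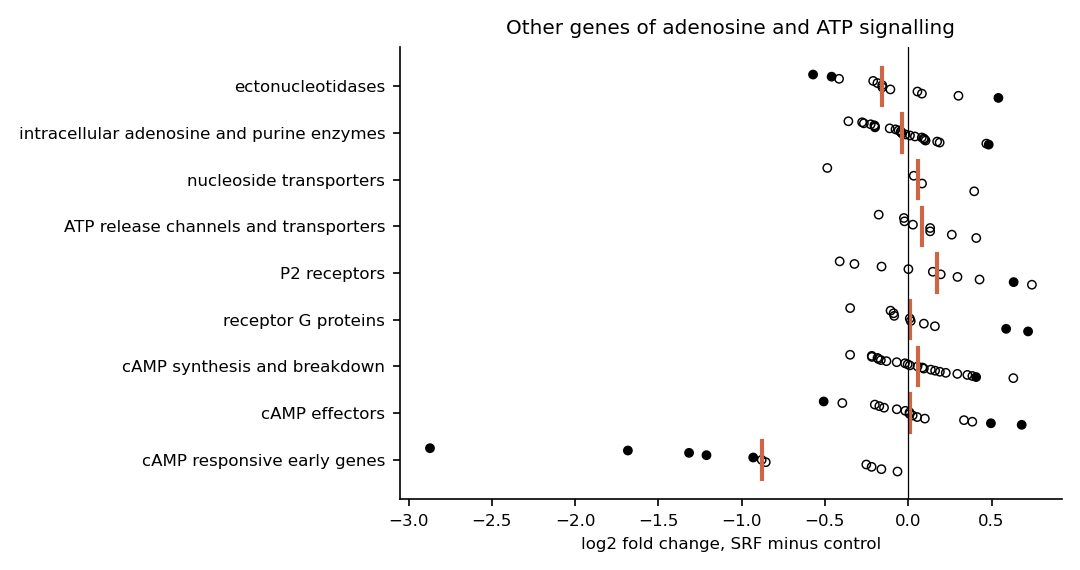
log2 fold change, SRF minus control, of the tested genes in 9 lists of adenosine and ATP signalling, 1 point per gene, filled where the unadjusted p-value is under 0.05, with the list median as a vertical bar. The early genes lie to the left of 0, with a median of -0.88, and the medians of the other lists lie between -0.16 and 0.17.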

How the data were processed

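RNA-seq of RPE-choroid from 3 control and 3 SRF mice was analysed. The authors filtered reads with FASTP and counted reads per gene with StringTie, and the deposited counts are unnormalized whole numbers. The deposited FPKM values of the authors are scaled by transcript length and mapped reads. The aligner, genome build, annotation and strandedness are not given in the sources used here. Symbols and positions came from GENCODE M21 (GRCm38), which held 15659 of 15663 identifiers.

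Genes whose count exceeded 50 in 2 or more libraries entered the fit of edgeR 4.0.16 in R 4.3.3 (TMM, estimateDisp, glmQLFit and glmQLFTest at their defaults, group as the only term). Benjamini-Hochberg adjustment ran over all tested genes, and calls needed an adjusted p under 0.05 with a log2 fold change of 0.5 or more in size. The study used DESeq2, which was run here (1.42.0) as an alternative, with limma 3.58.1 on log2(FPKM + 0.1) and log2(FPKM + 1). CPM values are TMM-normalized, and marker means use log2 CPM with a prior count of 2. Exact permutation tests of single genes cannot go under p = 0.1 with 3 mice against 3 and were not used for calls.

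Members and gene lists were chosen with earlier results of these data known. Named were the members, list genes with an unadjusted p-value under 0.05 (up to 6 per list), and the 5 genes most correlated with Adora2b and with Adora1. Alpl, Slc29a3, Per1 and Mybph were named after their values were seen. Library totals of 13667310 to 24356023 counts set the precision, and 3 counts correspond to 0.123 to 0.220 CPM. Alternatives covered normalization, filters, tool, unit, replicate block, photoreceptor level as covariate and libraries left out. The code was tested on simulated data: of genes changed by 1 and 2 on the log2 scale, edgeR recovered 29% and 83% and DESeq2 57% and 93% in the simulated comparison of 13454 genes. Unchanged genes made up 6 of 118 calls of edgeR and 44 of 194 of DESeq2.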

Additional observations from a re-analysis of the deposited data

How the results depend on the processing

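Over 26 alternatives, Adora1, Adora2b, Entpd1, Nt5e and Slc29a1 kept their direction in all 26, with log2 fold changes of 0.56 to 0.75, -0.91 to -0.75, 0.05 to 0.26, -0.95 to -0.31 and 0.35 to 0.73. Adora2b was picked for its decrease in these libraries, so its values under other settings are a description and no sign of stability. Alternatives that leave out both photoreceptor-rich libraries, or that run DESeq2 with a covariate, a replicate block or a mouse left out, were chosen after seeing the data. The cause of the differences between settings was not tested.

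The number of genes called, 0 by edgeR, was 153 with DESeq2, 1 with the newer quasi-likelihood method of edgeR, with library totals alone, with no filter on low counts, with filterByExpr or with the photoreceptor covariate, and 2 with limma on log2(FPKM + 0.1) or log2(FPKM + 1). With 1 mouse left out it ran from 0 to 5 in edgeR, the 5 without control mouse 1, and in DESeq2 it was 237, 91 and 182 without control mouse 1, 2 or 3 and 153, 67 and 361 without SRF mouse 1, 2 or 3. Without both photoreceptor-rich libraries it was 154 in edgeR and 514 in DESeq2, with 2 mice against 2. DESeq2 called 258 with the photoreceptor covariate.

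DESeq2 called Adora1 at 0.63, and at 0.63 with the photoreceptor covariate, where Adora2b was at -0.84 and -0.86. Without both photoreceptor-rich libraries Adora2b was at -0.77 in edgeR and -0.78 in DESeq2. Nt5e was at -0.94 in edgeR, not called, and at -0.95 in DESeq2, called. With 1 mouse left out, DESeq2 gave Adora1 0.58 to 0.75 (called in 3 of 6, at 0.75 without control mouse 3, 0.70 without SRF mouse 1 and 0.61 without SRF mouse 3). Adora2b was at -0.86, -0.81 and -0.84 without control mouse 1, 2 or 3 and at -0.91, -0.85 and -0.76 without SRF mouse 1, 2 or 3. The same fits gave Nt5e -0.95 to -0.31 (called without SRF mouse 3) and Slc29a1 0.35 to 0.73 (called without control mouse 3).

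The small differences of Ada and Adk turned sign. With 1 mouse left out, Ada ran from -0.12 to 0.16 and Adk from -0.18 to 0.35 in edgeR. In DESeq2, Ada was negative without control mouse 2 (-0.046), SRF mouse 1 (-0.12) or SRF mouse 3 (-0.013), and Adk without control mouse 1 (-0.14), control mouse 2 (-0.090) or SRF mouse 3 (-0.19). Without both photoreceptor-rich libraries Ada was at -0.0040 in edgeR and -0.011 in DESeq2, and Adk at -0.34 and -0.35.

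Deviations from the group mean had correlations from -0.48 to 0.49 between mice of the same number. With 3 mice in each group the deviations depend on each other, so these correlations cannot settle whether the numbers are pairs. The numbers were not taken as pairs. With the number as a replicate block, edgeR called 0 genes and DESeq2 201, with Adora1 at 0.64 and Adora2b at -0.84 in both tools and Ada at -0.00063 in DESeq2.

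Medians of gene lists were less stable. For the ectonucleotidases the median was -0.042 and -0.035 in the limma fits and -0.27 in edgeR or -0.28 in DESeq2 without both photoreceptor-rich libraries. For the purine enzymes inside the cell it was 0.017 in both limma fits, and -0.15 or -0.16 without those libraries. For the G proteins it was 0.061 with library totals alone, 0.11 with limma on log2(FPKM + 0.1) and 0.10 on log2(FPKM + 1). For the early genes it was -1.37 in edgeR and -1.38 in DESeq2 without those libraries. Leaving out 1 mouse in edgeR gave the early genes from -1.20, without SRF mouse 3, to -0.68, without control mouse 2. With 1 mouse left out in edgeR, the medians ran from -0.22 to -0.040 for the ectonucleotidases, -0.068 to 0.029 for the purine enzymes, -0.21 to 0.27 for the nucleoside transporters, -0.041 to 0.20 for the genes of ATP release, 0.024 to 0.21 for the ATP receptors and -0.022 to 0.065 for the G proteins. In DESeq2, leaving out control mouse 3 gave -0.037 for the ectonucleotidases, 0.030 for the purine enzymes and 0.068 for the G proteins. Leaving out SRF mouse 1 gave 0.27 for the nucleoside transporters, 0.025 for the ATP receptors and 0.058 for the G proteins, and the transporters were at 0.23 without control mouse 1 and -0.22 without SRF mouse 3.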

Other observations

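The count of a gene divided by its FPKM and by the library total gives the transcript length that the FPKM value implies. For Adora2b, which has 1 annotated transcript, this length was 1.85 kb in all 6 libraries and varied by 0.0396%. Nt5e, with 4 annotated transcripts, varied by 0.0749% and Ada, with 2, by 0.398%. Adora1, Adk, Entpd1 and Slc29a1, with 4, 10, 11 and 25, varied by 10.9%, 10.2%, 11.2% and 9.18% between libraries. For these 4 genes the FPKM values were divided by lengths that differed between libraries, a scaling that counts and CPM do not have. For Adora2a, SRF mouse 3 had an implied length of 2.05 kb against 2.60 to 2.65 kb in the other libraries, on 12 counts.

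The FPKM ratio of Entpd1 to Nt5e was 2.56, 3.58 and 2.14 in control mice 1, 2 and 3 and 6.08, 6.39 and 2.22 in SRF mice 1, 2 and 3. SRF mouse 3, the photoreceptor-rich SRF library, was within the control range.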
